A study of Mchenga conophoros with 13 samples.

Results

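The solute carriers are membrane proteins that move ions, transmitters, amino acids, sugars, metals and metabolic fuels across the cell surface or across the membranes of vesicles, mitochondria and the Golgi. In the brain, carriers on neurons and on the end feet and processes of glia end transmitter signals, load synaptic vesicles and set the pH and ion content on both sides of the membrane. In teleost fish the glia of the adult telencephalon are mainly radial glia, which line the ventricle, and astrocytes of the mammalian form are not a feature of this tissue. The genes described here were all annotated features named slc and a number, apart from the vesicular transporter and the glial transporter that served as cell type markers in the study, with at least 50 unique molecular identifiers (UMIs, 1 per captured mRNA molecule) over the whole series. This gave 139 solute carrier genes out of 185 with such names and out of 32471 annotated features, of which 22249 had at least 1 UMI. The weakest genes that entered, slc5a5 and slc45a2, had 56 UMIs each, and the strongest that did not, slc9a3r2, had 42. Solute carrier genes that the annotation lists only by a gene number are not among them, and 3 of the 139 (slc7a6os, slc2a4rg and slc4a1ap) are named after a carrier and are not carriers themselves.

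The samples were telencephala of adult males of the Lake Malawi cichlid Mchenga conophoros, older than 180 days, a species whose males build sand bowers. The labels gave 2 groups, building males (building 1 and building 2) and control males that were not building (control 1 and control 2), and no line, allele or drug separated them. Coronal sections of 10 µm were placed on 13 Visium capture areas, 1 from building 1 and 4 from each of the other 3 males, and RNA was counted in spots 55 µm across, each of which can hold several cells of different types. In such spots, fewer cells of a type and less RNA per cell cannot be told apart. The matrices held 6755 spots, of which 4 were empty, and the other 6751 carried 51779064 UMIs. The solute carrier genes supplied 331794 of these UMIs, or 0.641%, with a median of 896 UMIs per gene and a range from 56 to 30799. Capture areas differed in depth, with median UMIs per spot from 1225.5 in control 1 area C to 11973 in control 2 area D, and the next shallowest area had 3375.

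Spots were placed in classes by the summed standing of marker genes that include no solute carrier. Pallial spots (2024) stood above average for the pallial markers bhlhe22, tbr1, eomesa, emx3 and neurod6b and below average for the subpallial ones, and subpallial spots (1857) did the reverse, with nkx2-1, lhx6, isl1, sp9, six3, dlx5, dlx2 and both GABA synthesis genes gad2 and gad1b as the subpallial list. Glia-rich spots (633) were the highest 10% of each capture area for the radial glial genes gfap, fabp7 and s100b, and myelin-rich spots (633) the highest 10% for mpz, plp1b, mbpa and mag. Another 48 spots in both of these classes were set aside, and 5437 spots in neither are called other spots. The glia and myelin classes cut across the pallium and subpallium, so the same spot can count in a regional class and in one of these. Marker genes that the classes did not use mostly sided with the labels. The pallial neuronal genes neurod1 and neurod2 were higher in pallial spots in 4 of 4 males, whereas emx2, another gene of that list, was lower there in 4 of 4. All 6 subpallial check genes, such as dlx6 and lhx8, were lower in pallial spots in 4 of 4 males. Of these, dlx1 and sp8 had only 36 UMIs each over the whole series, so their direction per male rests on few UMIs. In glia-rich spots cyp19a1, id1, sox2, vim and hes1 were each higher in 4 of 4 males, as were olig1, olig2, sox10 and cldn19 in myelin-rich spots. Levels are given below as CPM, the UMIs of a gene scaled to 1000000 UMIs of the class, for building 1, building 2, control 1 and control 2 in that order. CPM is used here to compare each gene between classes, and 3' counts do not scale with transcript length.

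Transporters marked pallial and subpallial spots in every male. These classes rest on marker genes and not on spot positions, and whether subpallial spots include olfactory bulb was not tested. Of the 117 solute carrier genes with enough counts for the test, 14 were higher in pallial spots and 16 were lower, that is higher in subpallial spots, and all 30 kept their direction in 4 of 4 males (edgeR's quasi-likelihood test on counts summed per male, with male as a block, adjusted p under 0.05). Among all 12359 genes tested, 11.7% were higher and 11.3% lower in pallial spots, so the shares of the solute carriers, 12.0% and 13.7%, were near that background. Their median log2 difference, pallial minus subpallial, was -0.00078, against 0.0075 for all genes. In 13 of 13 capture areas the direction was the same for 6 of the 14 and 5 of the 16. The other 22 solute carrier genes fell below the count filter. The counts were 9 and 10 without control 2, and 13 and 10 without building 2.

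**Figure D1:**
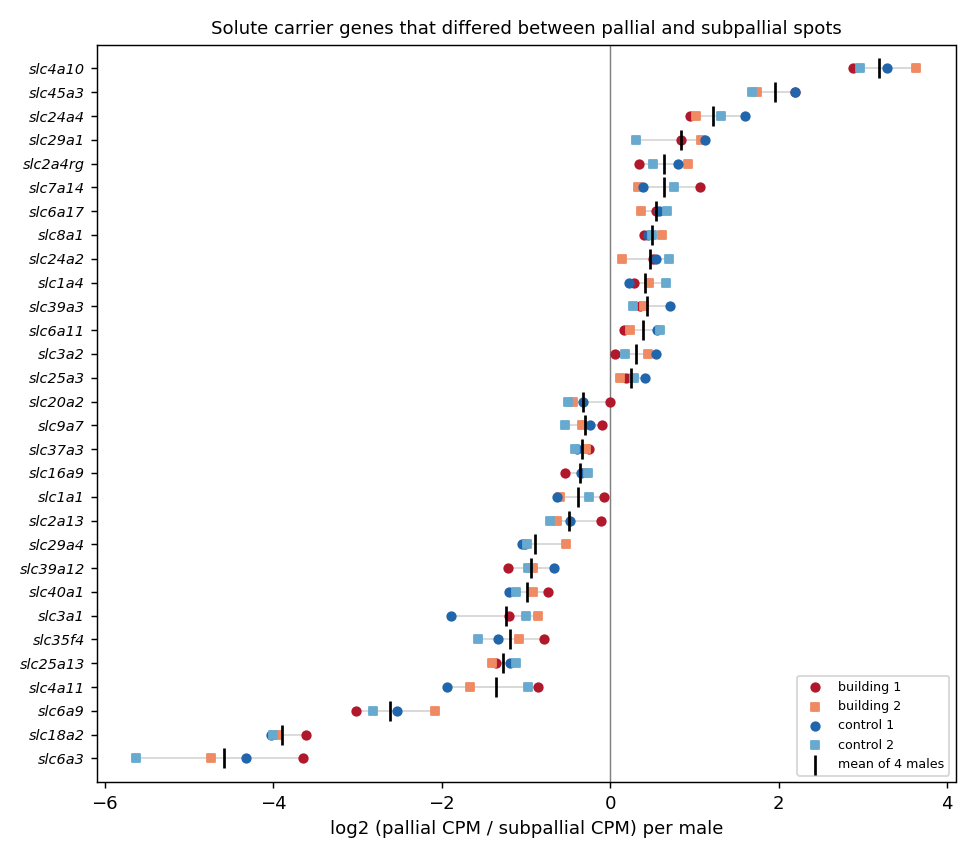
Each row is 1 of the 30 solute carrier genes that passed the test, each point the log2 ratio of its pallial to its subpallial CPM in 1 male (red, building; blue, control), and the black bar the mean of the 4 males. slc4a10 lies farthest to the pallial side and slc6a3, slc18a2 and slc6a9 farthest to the subpallial side, with all 4 males on the same side of 0 in every row.

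The largest pallial excess was that of slc4a10, which encodes a sodium-driven bicarbonate transporter that brings bicarbonate into neurons. Its level was 528, 399, 493 and 478 CPM in pallial spots and 71.2, 32.1, 50.2 and 61.2 CPM in subpallial spots. The lowest pallial value was above the highest subpallial value by a wide margin, and the direction held in 13 of 13 capture areas. The log2 difference was 3.23 ± 0.12 (SE, adjusted p = 8.46e-08). Its relative slc4a4, a sodium bicarbonate cotransporter of astroglia, had 53.7 ± 11.5 CPM (SD, n = 4) in pallial and 49.6 ± 9.79 CPM in subpallial spots, and the difference did not pass (0.09 ± 0.15, adjusted p = 0.758). Another member of the family, slc4a11, lay on the other side: 23.2, 16.5, 15.8 and 18.6 CPM in pallial spots against 42.2, 52.5, 61.2 and 36.3 CPM in subpallial spots, lower in pallial spots in 13 of 13 areas (-1.37 ± 0.17, adjusted p = 0.000208).

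The 139 genes held 6 that encode sodium-calcium exchangers, of which slc24a4, slc24a2 and slc8a1 were higher in pallial spots. slc24a4 and slc24a2 encode potassium-dependent exchangers and slc8a1 the exchanger NCX1, all of which remove calcium from neurons after activity. slc24a4 had 121, 63.9, 124 and 88.4 CPM in pallial and 62.4, 31.5, 40.6 and 35.3 CPM in subpallial spots, so within each male the pallium was higher, in 13 of 13 areas, although building 2 pallium and building 1 subpallium were close (1.22 ± 0.12, adjusted p = 2.98e-05). slc8a1 was 411 ± 42.5 against 293 ± 44.2 CPM (0.51 ± 0.06, adjusted p = 0.000218) and slc24a2 276 ± 28.5 against 200 ± 34.4 CPM (0.48 ± 0.10, adjusted p = 0.00446). slc8a3, which encodes another exchanger of the same kind, had 35.3 ± 4.74 and 31.0 ± 6.32 CPM and did not pass (adjusted p = 0.225). slc8b1, the mitochondrial exchanger, had a mean of 14.4 CPM in pallial and 18.0 CPM in subpallial spots and did not pass either (-0.26 ± 0.15, adjusted p = 0.264), and slc24a5 was too sparse for the test. Of the ion carriers as a whole, 4 of the 16 tested were higher and 3 lower in pallial spots, beside 11.7% and 11.3% of all genes.

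Among the amino acid and transmitter carriers, 5 of the 16 tested were higher in pallial spots and 4 lower, beside 11.7% and 11.3% of all genes. slc6a17, whose product loads neutral amino acids into synaptic vesicles, had 515, 511, 507 and 519 CPM in pallial spots and 354, 395, 338 and 325 CPM in subpallial spots. The pallial values of the 4 males thus differed by little, and none of the subpallial values reached them (0.55 ± 0.07, adjusted p = 0.00019). slc7a14, a lysosomal member of the cationic amino acid carrier family, was 167 ± 37.4 against 106 ± 13.8 CPM (0.63 ± 0.12, adjusted p = 0.00321), and slc1a4, an exchanger of serine and other neutral amino acids, 129 ± 16.4 against 97.3 ± 11.8 CPM (0.44 ± 0.09, adjusted p = 0.00634). slc6a11, the GABA transporter GAT3 of astroglia, and slc3a2, the heavy chain that carries several amino acid exchangers to the membrane, had smaller pallial excesses of 0.40 ± 0.09 (adjusted p = 0.0104) and 0.32 ± 0.10 (adjusted p = 0.0353). Without control 2, slc1a4, slc6a11 and slc3a2 no longer passed, nor did slc6a11 and slc3a2 without control 1 or slc3a2 without building 2, and over all alternatives their adjusted p reached 0.0694, 0.0914 and 0.23.

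Of the monoamine transporter genes, slc6a3, slc18a2 and slc29a4 were higher in subpallial spots, and slc18a1 (means of 1.67 and 1.73 CPM in pallial and subpallial spots) and slc6a2 (2.86 and 2.52 CPM) were too sparse for the test. slc6a3, the dopamine transporter of the neuronal surface, had 10.4, 2.86, 7.71 and 5.02 CPM in pallial spots and 134, 77.8, 158 and 250.4 CPM in subpallial spots. Every subpallial value was several times above every pallial value, and the subpallial values themselves spread widely, with the highest in control 2 (-4.82 ± 0.23, adjusted p = 2.55e-07). slc18a2, which loads monoamines into vesicles, had 5.49, 6.46, 5.99 and 6.70 CPM in pallial and 70.6, 100.3, 100.4 and 108 CPM in subpallial spots (-3.95 ± 0.12, adjusted p = 2.13e-08). slc29a4, which encodes a low-affinity monoamine transporter of the plasma membrane, had 52.5, 90.8, 49.7 and 76.2 CPM against 106, 130.4, 102 and 151 CPM, so that the highest pallial value lay below the lowest subpallial one (-0.84 ± 0.11, adjusted p = 0.000202). Its relative slc29a1, an equilibrative carrier of adenosine and other nucleosides, went the other way, with 22.6 ± 3.42 CPM in pallial and 12.5 ± 2.20 CPM in subpallial spots (0.85 ± 0.17, adjusted p = 0.00489).

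slc6a9, the glycine transporter GlyT1, which is mainly glial in mammals, had 17.1, 19.1, 14.6 and 14.2 CPM in pallial and 139.9, 81.3, 85.0 and 100.5 CPM in subpallial spots. The groups were far apart in all 4 males and in 13 of 13 areas (-2.54 ± 0.15, adjusted p = 8.3e-07). slc3a1, the heavy chain of a cystine and basic amino acid exchanger best known in kidney, had 5.50 ± 1.73 against 12.7 ± 2.06 CPM (-1.09 ± 0.22, adjusted p = 0.00412).

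By role, 2 of the 16 metal carriers tested, 3 of the 14 sugar and fuel carriers and 1 of the 17 mitochondrial carriers were lower in pallial spots. In each of these roles 1 carrier was higher. Among all genes tested, 11.3% were lower and 11.7% higher, and counts this small do not set a role apart from those shares. slc39a12, a zinc importer expressed in brain, had 43.3, 45.5, 47.9 and 44.1 CPM in pallial and 101, 85.7, 76.0 and 86.7 CPM in subpallial spots, without overlap (-0.93 ± 0.10, adjusted p = 7.38e-05). slc40a1, the iron exporter ferroportin, had 5.93 ± 0.926 against 11.8 ± 0.785 CPM (-0.99 ± 0.19, adjusted p = 0.00373). slc25a13, the mitochondrial aspartate-glutamate carrier citrin, had 6.71, 6.46, 5.56 and 8.23 CPM against 17.7, 17.2, 12.9 and 17.8 CPM, lower in pallial spots in 13 of 13 areas (-1.27 ± 0.17, adjusted p = 0.000352). It was the only mitochondrial carrier of the 17 tested that was lower, and slc25a3, the mitochondrial phosphate carrier and the most abundant of all 139 genes, was the only one that was higher (646 ± 27.8 against 544 ± 33.3 CPM). slc35f4, an orphan member of a family of nucleotide sugar carriers, was lower in pallial spots (-1.26 ± 0.24, adjusted p = 0.00338) and was the only one of the 21 Golgi and ER carriers tested that passed. slc2a13, a proton-coupled carrier of myo-inositol, was not among the 10 largest subpallial excesses and had 214 ± 54.6 against 306 ± 102 CPM (-0.49 ± 0.10, adjusted p = 0.00374). On the pallial side, slc45a3, of a family of putative sugar carriers, had 29.9, 18.5, 24.8 and 25.3 CPM against 6.30, 5.47, 5.15 and 7.73 CPM, again without overlap (1.90 ± 0.17, adjusted p = 2.08e-05). slc2a4rg, a gene for a regulator of a glucose transporter gene and not for a carrier, was 62.8 ± 2.88 against 40.7 ± 8.24 CPM (0.68 ± 0.11, adjusted p = 0.00141).

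The ion pumps that set the gradients for many of these carriers were counted for comparison, and 7 of those named by symbol had enough counts for the test. Of these, atp1b4, atp2a3, atp2b1 and atp2b2 were higher in pallial spots and none lower, beside 11.7% and 11.3% of all genes. The furthest was atp2b1, a calcium pump of the plasma membrane (0.78 ± 0.08).

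**Figure D2:**
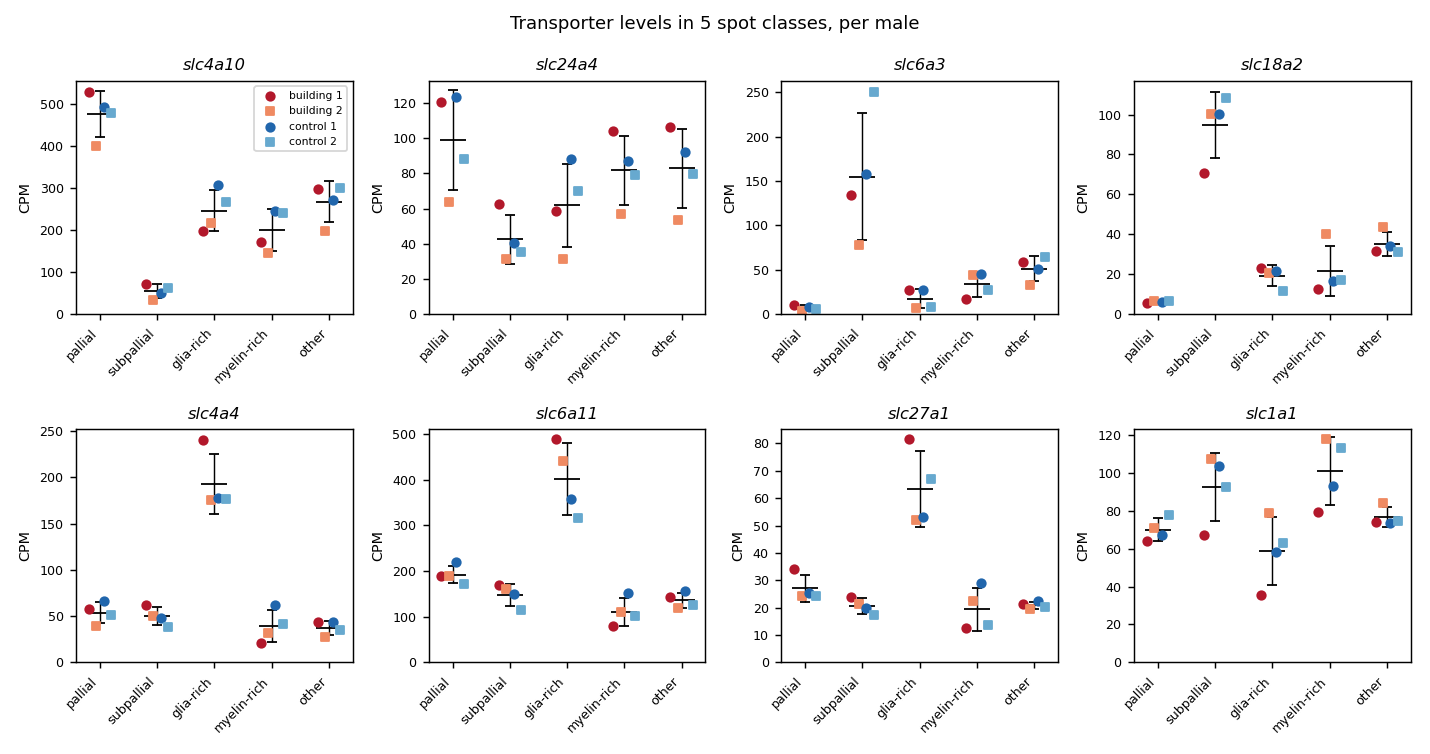
CPM of 8 transporters (panels) in 5 spot classes, with 1 point per male and the mean ± SD in black; glia-rich and myelin-rich spots can also be pallial or subpallial. slc4a10 and slc24a4 are highest in pallial spots, slc6a3 and slc18a2 in subpallial spots and slc4a4, slc6a11 and slc27a1 in glia-rich spots, whereas slc1a1 has values from 79.3 to 118 CPM in myelin-rich spots that overlap those of subpallial spots.

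Radial glia-rich spots differed from the rest of the tissue in transporters such as slc4a4, slc6a11 and slc27a1, each higher there by more than 2-fold. Of 124 solute carrier genes tested, 18 were higher in glia-rich than in other spots and 5 were lower. Among all 12832 genes, 9.94% were higher and 4.72% lower, against 14.5% and 4.03% of the solute carriers, and the median log2 difference, glia-rich minus other, was 0.01 for the solute carriers and -0.02 for all genes. The direction held in 4 of 4 males for 17 of the 18 and for all 5. Without building 2 the counts were 11 and 3, and the lower genes also numbered 3 without building 1 or without control 1. The exception to the direction was slc6a20, with 0 UMIs of 477715 in building 1 glia-rich spots, which allows a level of up to 6.28 CPM (3 UMIs, counting error only). Of the 23 genes, 15 differed by at least 2-fold when both directions are counted. By role, the higher genes were 5 of 17 amino acid and transmitter carriers tested, 4 of 13 carriers of organic ions, nucleosides and vitamins, 3 of 17 ion carriers, 3 of 17 metal carriers, 2 of 14 sugar and fuel carriers and 1 of 19 mitochondrial carriers. None of the 21 Golgi and ER carriers tested passed in either direction.

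**Figure D3:**
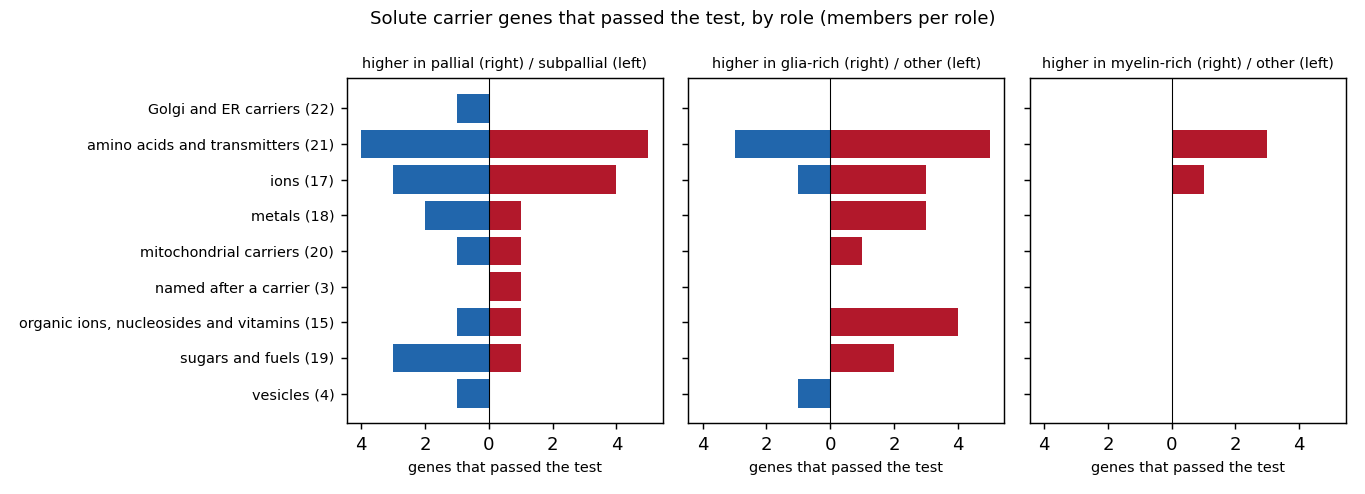
Number of solute carrier genes that passed the test in each role, to the right when higher in the first class of the panel and to the left when higher in the second, with the number of genes per role in parentheses. Amino acid and transmitter carriers and ion carriers appear on both sides of the pallial-subpallial panel, the glia-rich panel holds 18 genes to the right and 5 to the left, and the myelin-rich panel holds 4 genes, all to the right.

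The sodium bicarbonate cotransporter gene slc4a4 and the GABA transporter gene slc6a11 combined a high level with a large glia-rich excess. slc4a4 had 241, 176, 178 and 176 CPM in glia-rich and 44.0, 27.1, 43.2 and 34.5 CPM in other spots, higher in 13 of 13 areas (2.46 ± 0.11, adjusted p = 1.22e-10). slc6a11 had 489.8, 442, 358 and 317 CPM against 142, 118, 157 and 126 CPM, again higher in 13 of 13 areas (1.61 ± 0.11, adjusted p = 1.22e-08). In both genes every glia-rich value lay above every value of the other spots. slc3a2, the exchanger heavy chain, had 253, 212, 174 and 186 CPM against 121, 98.0, 99.1 and 101 CPM (1.02 ± 0.09, adjusted p = 3.05e-07), and this gene was also the only one of the glia-rich set that passed in pallial, glia-rich and myelin-rich spots alike. slc6a9, the glycine transporter, had 109, 70.5, 43.1 and 43.8 CPM against 62.1, 39.1, 36.4 and 32.0 CPM, so that values overlapped between males while each male was higher in glia-rich spots (0.69 ± 0.13, adjusted p = 0.00112).

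Of the sugar and fuel carriers, 2 of the 14 tested were higher in glia-rich spots, slc27a1 and slc16a4, beside 9.94% of all genes. slc27a1, which takes up fatty acids, had 81.6, 52.1, 53.1 and 67.02 CPM in glia-rich and 21.2, 19.7, 22.3 and 20.05 CPM in other spots (1.62 ± 0.15, adjusted p = 5.05e-07). All 3 members of the sodium-coupled SLC13 family among the 139 genes were higher. slc13a5, a citrate importer, had 6.28, 9.88, 11.6 and 8.89 CPM against 3.07, 1.05, 1.79 and 2.59 CPM (2.39 ± 0.38, adjusted p = 0.000257). slc13a3, an importer of dicarboxylates such as succinate, had 14.04 ± 4.75 against 3.68 ± 0.794 CPM (1.86 ± 0.30, adjusted p = 0.000291), and slc13a4, a sulfate importer, 18.9 ± 5.91 against 6.57 ± 1.66 CPM (1.499 ± 0.26, adjusted p = 0.000517). slc16a4, an orphan of the monocarboxylate carrier family, had 18.8, 25.2, 8.30 and 19.8 CPM against 4.86, 6.11, 6.96 and 5.49 CPM, with control 1 well below the other males (1.77 ± 0.27, adjusted p = 0.000211). These are small counts: slc13a5 had 45 UMIs and slc13a3 58 UMIs in all glia-rich spots.

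slc12a4, a potassium-chloride cotransporter involved in cell volume, had 35.6, 19.8, 16.6 and 19.1 CPM in glia-rich and 7.41, 4.91, 7.16 and 4.42 CPM in other spots, without overlap (1.99 ± 0.24, adjusted p = 1.82e-05). slc24a5, known for its part in pigment cell organelles, showed the largest fitted difference of all (2.78 ± 0.54, adjusted p = 0.00156) but rested on 27 UMIs in glia-rich and 39 in other spots, with 16.7, 3.59, 3.32 and 6.16 CPM against 0.511, 1.10, 0 and 1.07 CPM. The 0 in control 1 allows a level of up to 0.597 CPM. slc30a8, a zinc transporter best known from pancreatic beta cells of mammals, had 24 UMIs in glia-rich spots (1.56 ± 0.41, adjusted p = 0.0141), and lost its call without control 1, whose 11.6 CPM was above the 3.42 to 4.49 CPM of the other males. Of the pumps, atp1b4, of the beta subunit family of the sodium pump, was higher by 2.39 ± 0.09, and atp2a3, atp2b1 and atp2b2 were lower.

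The 5 genes lower in glia-rich spots were the dopamine and vesicular monoamine transporters, the vesicular amino acid carrier slc6a17, the calcium exchanger slc8a1 and slc43a3, a carrier of purine bases. slc6a3 had 27.2, 7.19, 26.6 and 8.21 CPM in glia-rich and 58.3, 32.1, 50.7 and 63.9 CPM in other spots (-1.85 ± 0.24, adjusted p = 3.35e-05), and slc18a2 19.2 ± 5.16 against 35.0 ± 5.87 CPM (-0.95 ± 0.18, adjusted p = 0.00108). slc6a17 differed by -0.30 ± 0.08 (354 ± 32.1 against 449 ± 15.9 CPM, adjusted p = 0.011) and slc8a1 by -0.32 ± 0.09 (327 ± 82.9 against 409 ± 44.5 CPM, adjusted p = 0.0263). slc43a3 differed by -0.89 ± 0.28 (adjusted p = 0.0404) and lost its call when any 1 male was left out, slc8a1 without building 1, building 2 or control 1, and slc6a17 without control 2. slc4a10 (-0.04 ± 0.10), slc24a2 (-0.11 ± 0.10) and slc8a3 (0.01 ± 0.14) had no difference that passed, and slc38a2, a glutamine carrier, was too sparse.

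**Figure D4:**
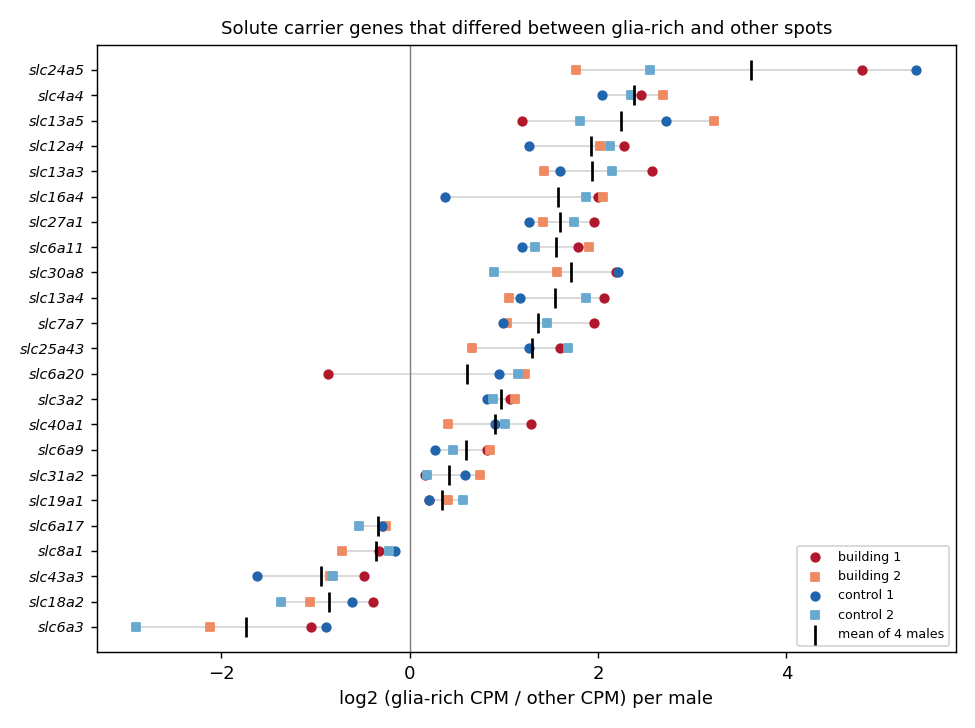
Each row is 1 of the 23 solute carrier genes that passed the test, each point the log2 ratio of its glia-rich to its other-spot CPM in 1 male (red, building; blue, control; 0.5 UMIs added to each count), and the black bar the mean of the 4 males. slc4a4, slc27a1 and slc6a11 are high with little spread, slc24a5 is high with a wide spread, and slc6a20 is the 1 row whose males lie on both sides of 0.

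Several markers of other cell types differed between the glia-rich class and other spots. The neuronal genes elavl3, elavl4, snap25 and syt1 summed to 5357 to 5818 CPM in the glia-rich spots of the 4 males and 6798 to 7215 CPM in the other spots. Of these, elavl3 and snap25 were lower in glia-rich spots in 4 of 4 males, whereas elavl4 was higher in both building males and syt1 in building 2. The microglial genes csf1r, mrc1 and apoeb summed to 1057 to 1786 CPM against 488 to 580 CPM. Both csf1r and apoeb were higher in 4 of 4 males, and mrc1 in 3, with control 1 lower. Over the whole series apoeb had 34198 UMIs, csf1r 427 and mrc1 386, so the sum is mostly apoeb. The genes listed as fibroblast markers, col1a1, col1a2, lum and pdgfra, all 4 higher in 4 of 4 males, summed to 16.6 to 43.8 CPM against 6.90 to 10.2 CPM. Of these, pdgfra had 277 UMIs over the whole series and col1a2 239. Whether the pdgfra UMIs came from fibroblasts was not tested. The blood gene spi1 (7.31 ± 2.37 against 3.33 ± 0.560 CPM) was higher in 4 of 4 males. The ependymal gene enkur (2.72 ± 2.46 against 0.652 ± 0.232 CPM) was higher in each male except control 2 (0.684 against 0.839 CPM). The mural genes rgs5a, pdgfrb and acta2 summed to 142 ± 18.5 against 106 ± 22.8 CPM. Of these, pdgfrb was higher in 4 of 4 males, acta2 lower in 4 of 4 and rgs5a higher in 2 of 4. The study also reported strong pdgfrb expression in radial glia. The endothelial genes kdr, tie1, flt1 and cldn5 summed to 82.4 ± 25.9 against 76.1 ± 9.41 CPM. Among them, kdr, tie1 and flt1 were each higher in 2 of 4 males and cldn5 in 3. When the spots with any UMI of the 4 fibroblast genes were left out of both classes, 16.7% of glia-rich and 4.51% of other spots, 14 of the 18 genes and 4 of the 5 still passed, with slc24a5 at 2.93 and slc4a4 at 2.49. Without the spots that held a UMI of csf1r, mrc1 or spi1, 21.8% of glia-rich and 10.7% of other spots, 12 of the 18 and 3 of the 5 passed, and slc24a5 and slc30a8 were too sparse to test. Spots with apoeb were kept in this fit. Both fits leave out only spots where such a UMI was captured, and these genes are sparse. The fibroblast list had 22 to 277 UMIs per gene over the whole series. Spots that hold such cells may therefore remain, and the part of each of these cell types in these results was not tested.

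Glia-rich spots were spread over both regions, with 35.4% of them pallial and 21.96% subpallial, so the comparison was repeated within each. Within pallial spots, 9 of 95 solute carrier genes were higher in the 224 glia-rich than in the 1648 other spots and 4 were lower, beside 7.26% and 3.06% of all 10309 genes tested. Within subpallial spots, with 139 glia-rich and 1488 other spots, 4 of 93 were higher and 2 lower, beside 2.37% and 1.01% of 9939 genes. The 4 higher in subpallial glia-rich spots were slc4a4 (2.03 ± 0.22), slc6a11 (1.81 ± 0.16), slc27a1 (1.41 ± 0.33) and slc3a2 (0.91 ± 0.19), and all 4 were also among the 9 in the pallium, with 2.60 ± 0.14, 1.301 ± 0.10, 1.57 ± 0.19 and 0.99 ± 0.11. slc12a4 (2.20 ± 0.32), slc13a5 (2.42 ± 0.45), slc13a4 (1.29 ± 0.39) and slc40a1 (1.33 ± 0.43) were higher within pallial spots as well. The genes lower in glia-rich pallial spots were slc24a4 (-0.71 ± 0.16), slc16a7, a monocarboxylate carrier that is mainly neuronal in mammals (-0.87 ± 0.28), slc8a1 (-0.37 ± 0.09) and slc6a17 (-0.33 ± 0.08). In subpallial spots they were slc6a3, with 99.2, 19.8, 96.9 and 51.8 CPM in glia-rich against 141, 86.1, 166 and 274 CPM in other spots (-1.496 ± 0.26, adjusted p = 0.000655), and slc18a2 (-0.84 ± 0.23, adjusted p = 0.0439). Without building 1 or building 2, the subpallial calls of slc27a1 and slc3a2 were lost, as was that of slc18a2 without either or without control 2. In the pallium, slc16a7 lost its call without any 1 male, slc40a1 without building 1, control 1 or control 2, slc13a4 without building 1 or control 2, slc8a1 without building 2 and slc6a17 without control 2. The numbers of lower genes fell to 2 in the pallium and 1 in the subpallium in the smallest of these fits.

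The glycine transporter gene differed between the regions. In pallial spots slc6a9 had 69.6, 50.7, 28.7 and 33.2 CPM where glia was rich and 10.9, 14.9, 11.4 and 12.0 CPM elsewhere, so the 4 glia-rich values lay above all 4 others (1.81 ± 0.25, adjusted p = 2.95e-06). In subpallial spots it had 149, 88.4, 70.4 and 59.1 CPM against 141, 84.8, 87.0 and 102 CPM, higher in both building males and lower in both control males (-0.09 ± 0.20, adjusted p = 0.942). The subpallial glia-rich spots numbered 18, 69, 35 and 17 in the 4 males. Those of building 1, control 1 and control 2 held 120922, 113560 and 135250 UMIs of all genes, so their slc6a9 values rest on few UMIs. A test of the difference between the 2 regions, added after these values were seen, gave 1.88 ± 0.30 on the log2 scale, pallial minus subpallial (adjusted p = 0.000761). slc6a9 was the only 1 of 106 solute carrier genes to pass that test, beside 0.447% of 11189 genes. Each male and region formed its own block there, so the 2 regions of a male were treated as independent. For slc6a11 the difference between regions was -0.55 ± 0.19 and for slc4a4 0.53 ± 0.24, and neither passed (adjusted p = 0.311 and 0.59).

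**Figure D5:**
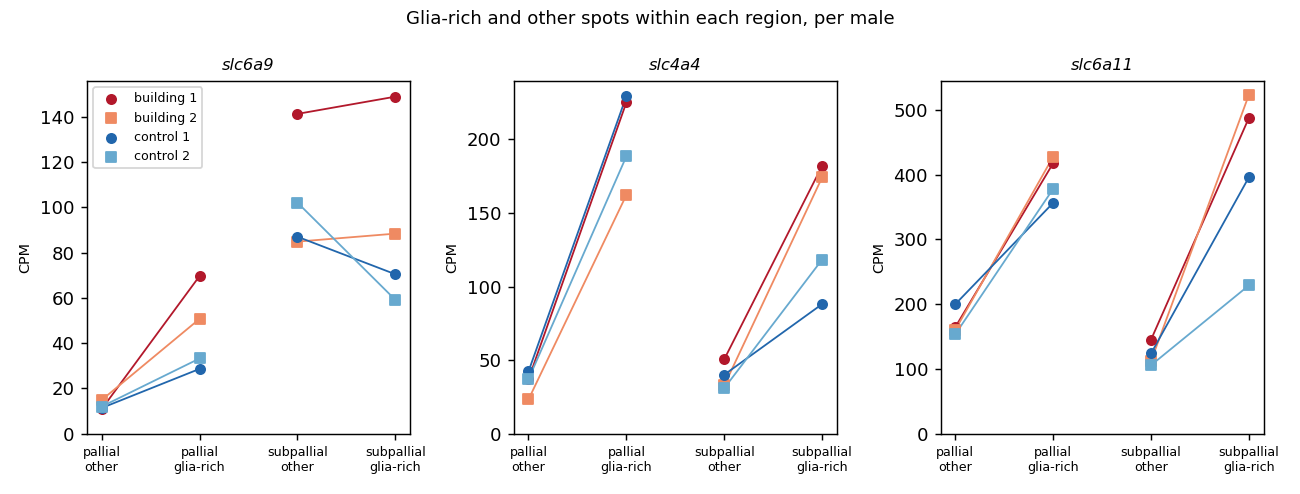
CPM of slc6a9, slc4a4 and slc6a11 in other and glia-rich spots of the pallium and subpallium, with 1 line per male and region. slc6a9 is higher in glia-rich than in other spots in 4 of 4 males in the pallium and in 2 of 4 in the subpallium, whereas slc4a4 and slc6a11 are higher in 4 of 4 in both.

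Few transporters marked the myelin-rich spots, and the share that was higher there was near that of all genes. Of 120 solute carrier genes tested, 4 were higher than in other spots and 0 lower. That is 3.33% higher, beside 4.21% of all 12514 genes higher and 1.79% lower. An unadjusted p under 0.05 in edgeR's test was found for 18, a count without the share over all genes. DESeq2 gave 2 higher and 0 lower. slc1a1, a neuronal glutamate transporter, had 79.3, 118, 93.1 and 113 CPM in myelin-rich and 73.9, 84.3, 73.4 and 74.6 CPM in other spots (0.52 ± 0.12, adjusted p = 0.00914). slc20a2, a phosphate importer, had 192, 226, 197 and 167 CPM against 168, 163, 151 and 123 CPM (0.47 ± 0.10, adjusted p = 0.00567). slc3a2 had 188, 124, 109.6 and 119 CPM against 121, 98.0, 99.1 and 101 CPM (0.39 ± 0.11, adjusted p = 0.0383), and slc6a15, a neutral amino acid transporter of neurons, 463, 365, 323 and 326 CPM against 301, 303, 288 and 294 CPM (0.35 ± 0.09, adjusted p = 0.0234). In slc1a1 the lowest myelin-rich value lay within the range of the other spots, and in slc6a15 it lay above them. Each difference was under 2-fold, and none of the 4 remained without building 2. slc3a2 lost its call without any 1 male, slc6a15 without building 1 or control 1 and slc1a1 without control 2, which left 2 higher genes in each of these fits.

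Myelin-rich spots did not have the same regional makeup in each male. In building 2, 54.3% of them were subpallial and 10.1% pallial, against 11.3% and 32.5% in building 1, 29.1% and 27.7% in control 1 and 16.5% and 35.4% in control 2. slc1a1 and slc20a2 were themselves lower in pallial than in subpallial spots (-0.40 and -0.32). Within pallial spots none of the 4 genes passed and slc3a2 had -0.18, the reverse sign, with 0 of 87 solute carrier genes higher and 2 lower beside 1.59% and 0.918% of 9694 genes. Within subpallial spots slc3a2 (0.88 ± 0.20, adjusted p = 0.000736), slc1a1 (0.68 ± 0.20, adjusted p = 0.0246) and slc20a2 (0.58 ± 0.18, adjusted p = 0.0397) passed and slc6a15 did not (0.38 ± 0.17, adjusted p = 0.28), with 4 of 95 solute carrier genes higher and 2 lower beside 2.65% and 1.48% of 10290 genes. The 2 lower genes in the subpallium were slc18a2 (-0.99, adjusted p = 0.00323) and slc6a3 (-0.67, adjusted p = 0.0402), which were also lower in its glia-rich spots. In the pallium they were slc4a10 and slc6a11 (-0.58, adjusted p = 0.0492). The myelin-rich spots numbered 148 in the pallium and 212 in the subpallium, of which building 1 gave 9 and building 2 gave 134 in the subpallium. These fits within each region were not repeated with a male left out. slc4a10, with 200 ± 49.8 against 266 ± 48.5 CPM over both regions, did not pass (-0.33 ± 0.10, adjusted p = 0.0588), but was lower in myelin-rich spots within the pallium (-0.58, adjusted p = 0.000641) and higher within the subpallium (0.81, adjusted p = 0.0493). The neuronal genes summed to 7170 ± 294 CPM in myelin-rich and 6958 ± 185 CPM in other spots. Of them, elavl4 was higher in 4 of 4 males, snap25 in 3, syt1 in 2 and elavl3 in 1. The microglial genes summed to 983 ± 196 CPM in myelin-rich and 548 ± 41.7 CPM in other spots, with csf1r and apoeb higher in 4 of 4 males and mrc1 in 3. The mural genes summed to 131 to 185 CPM against 81.2 to 136 CPM. Of these, rgs5a was higher in 4 of 4 males and acta2 in 2 of 4, and pdgfrb was close to equal in building 1 (log2 ratio 0.02). The endothelial genes summed to 95.6 ± 23.2 against 76.1 ± 9.41 CPM, with tie1 and cldn5 higher in 4 of 4 males, kdr in 3 and flt1 in 2. The genes listed as fibroblast markers summed to 4.17, 6.27, 20.7 and 12.1 CPM against 6.90, 8.54, 8.56 and 10.2 CPM. The list was thus lower in both building males and higher in both control males, on few UMIs. The part of these cell types in the myelin-rich values was not tested.

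Glia-rich and myelin-rich spots were also compared with each other. Of 92 solute carrier genes tested, 8 were higher in glia-rich and 7 in myelin-rich spots, beside 5.69% and 4.60% of 9791 genes. slc4a4 led the glia-rich side, with 241, 176, 178 and 176 CPM against 20.9, 31.4, 62.1 and 41.9 CPM in myelin-rich spots (2.21 ± 0.19). slc6a11 (1.80 ± 0.16) and slc27a1 (1.58 ± 0.25) came next, both higher in 13 of 13 areas. slc12a4 (1.46 ± 0.36), slc13a4 (1.37 ± 0.41), slc3a2 (0.63 ± 0.12), the copper importer gene slc31a1 (0.62 ± 0.18) and slc1a4 (0.50 ± 0.15) followed. On the myelin-rich side stood slc1a1 (-0.77 ± 0.15), slc20a2 (-0.53 ± 0.12), slc6a15 (-0.51 ± 0.11), slc6a17 (-0.38 ± 0.11), slc45a3 (-1.04 ± 0.27) and slc16a7 (-0.85 ± 0.25). slc6a3 also passed (-1.52 ± 0.36), but in building 1 it was higher in glia-rich spots. Only slc4a4, slc6a11 and slc27a1 of these 15 passed under every alternative tried. Without building 2 the counts were 4 and 3, and without control 2 they were 5 and 3.

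Building and control males were compared over all spots. None of the 139 solute carrier genes passed, nor did any of 15532 genes (0%). In edgeR's test 1 solute carrier gene had an unadjusted p under 0.05, beside 306 of the 15532 genes. DESeq2 gave 2 such solute carrier genes, a count without the share over all genes. The males were collected as 2 size-matched pairs of a building and a control male, and the labels do not say which males form a pair. With 2 males per group an exact permutation test of a single gene could not go below p = 0.3333. The smallest unadjusted p was that of slc8b1, which encodes the mitochondrial sodium-calcium exchanger, with 18.3 and 22.2 CPM in the building males and 10.9 and 11.8 CPM in the control males (0.83 ± 0.19 on the log2 scale, adjusted p = 1.00). slc6a9 had 64.5 and 42.0 against 36.8 and 34.0 CPM (0.56 ± 0.23), and slc1a4 108 and 107 against 124 and 137 CPM (-0.29 ± 0.13). In these 3 genes, chosen for their small p, the groups did not overlap, which that choice favours, and the adjusted p was 1.00 for each. The pallial-subpallial difference was not shown to depend on building either: none of 117 solute carrier genes and none of 12359 genes passed (0%). Unadjusted p in edgeR's test was under 0.05 for 3, beside 389 of the 12359 genes. The 3 were slc4a4 (-0.70 ± 0.21, building minus control), slc6a11 (-0.37 ± 0.16) and slc24a4 (-0.47 ± 0.20).

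Across the regional, glia-rich and myelin-rich comparisons, 46 of the 139 solute carrier genes passed in at least 1, 79 were tested and passed in none, and 14 were too sparse for all 3. These comparisons share spots and so are not independent of each other. slc3a2 and slc6a11 were on both the pallial and the glia-rich side, and slc6a9 and slc40a1 were on the subpallial and the glia-rich side.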

How the data were processed

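The authors mapped Visium reads to the Maylandia zebra genome (UMD2a, RefSeq annotation) with Space Ranger 1.3.1 and deposited the UMI count of every gene in every spot, unscaled. Capture areas were grouped by the labels (2 building and 2 control males), and spot positions were not used. The share of barcodes that capture areas had in common was 0% to 88.4%, since barcodes name array positions. Spot classes came from mean Pearson residuals (theta 100) of marker lists, the glia-rich and myelin-rich cut being the highest 10% per area. Marker genes listed only by number were matched through the supplementary tables of the study.

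Counts were summed per male and class and tested with the quasi-likelihood test of edgeR 4.0.16, after filterByExpr and TMM scaling, with male as a block, building against control without one, and Benjamini-Hochberg adjustment ran over all genes. The test of the glia-rich difference between regions used each male and region together as a block. The threshold was 0.05. Values after ± are the SE of a log2 difference or the SD of 4 males. Ratios per male had 0.5 UMIs added. The members, marker lists, roles and tests were chosen with earlier results of these data known. The text names, per comparison, up to 10 genes per direction with the largest change among those called and alike in all 4 males, 12 preset transporters of 27 listed that are members, and the 3 members with the smallest p for building. One of the preset transporters is not reported here. Others (slc25a3, slc2a13, slc6a20, and slc40a1 in glia-rich spots) were chosen after their values were seen. The tests within myelin-rich regions, without fibroblast or microglial spots, and of the glia-rich difference between regions were added after the data were seen. Alternatives included DESeq2 1.42.0, no filter, no block, other cuts and lists, and leaving out each male or the shallowest area. On simulated counts, changes of 2-fold were recovered in 91% of 100 genes between pallial and subpallial and 83% between glia-rich and other spots. The share was 79% between myelin-rich and other spots and 31% between building and control males, where 4-fold changes were recovered in 67%. The fits gave 17, 10, 7 and 23 false calls in the same order. Where p-values rest on 4 males, no technical replicate was counted as a sample.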

Additional observations from a re-analysis of the deposited data

Results flagged for a closer look

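Over 106 sets of 4 males, one per tested difference of a named gene, 6 had a male far from the other 3, and chance alone would give about 1 in 20. The values are log2 ratios per male. The pallial-subpallial ratio of slc29a4 was -0.52 in building 2 and -1.04 to -0.99 in the other males. The glia-rich ratio of slc16a4 was 0.37 in control 1 and 1.87 to 2.05 in the others, and that of slc6a17 was -0.54 in control 2 and -0.29 to -0.25 in the others. The myelin-rich ratio of slc38a2, a gene with 15 UMIs in these spots, was -1.75 in control 1 and 1.00 to 1.38 in the others. Between glia-rich and myelin-rich spots, slc20a2 had -0.86 in control 2 and -0.40 to -0.35 in the others. Within pallial spots the glia-rich ratio of slc8a1 was -0.73 in building 2 and -0.33 to -0.26 in the others.

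In 3 named differences both building males lay on one side of 0 and both control males on the other, and the difference between the conditions was not tested. The glia-rich ratio of slc6a9 within subpallial spots averaged 0.09 in building and -0.46 in control males, a difference of 0.55. Its control values rest on few UMIs, from 35 and 17 glia-rich spots. The myelin-rich ratio of slc24a2 averaged 0.03 and -0.21, a difference of 0.25, and the ratio of slc8a1 between glia-rich and myelin-rich spots averaged -0.51 and 0.25, a difference of -0.76.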

How the results depend on the processing

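Of the genes named for passing the test, 19 of 22 passed under every alternative tried between pallial and subpallial spots, 12 of 17 between glia-rich and other spots, 7 of 13 and 2 of 6 for glia-rich spots within the pallium and subpallium, 3 of 15 between glia-rich and myelin-rich spots and 0 of 4 for myelin-rich spots. Only slc3a2 changed sign, with -0.1836 for myelin-rich spots within the pallium (adjusted p = 0.848).

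Leaving out each male in turn gave, higher and lower, 9 to 14 and 10 to 15 solute carrier genes between pallial and subpallial spots, 11 to 14 and 3 to 4 for glia-rich spots, 0 to 2 and 0 to 1 for myelin-rich spots, 4 to 9 and 3 to 7 for glia-rich against myelin-rich spots, 7 to 10 and 2 to 3 within the pallium, 2 to 4 and 1 to 2 within the subpallium, and 0 to 0 between conditions.

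Without the male as a block, the counts that moved were 10 lower between pallial and subpallial spots, 2 lower for glia-rich, 0 higher for myelin-rich, 4 higher and 1 lower for glia-rich against myelin-rich spots, 1 lower within the pallium and 0 lower within the subpallium. The study used size-matched pairs, the labels do not tie the replicate numbers to them, and deviations of same-numbered males correlated at 0.229 over 15532 genes in 2 pairs. With the number as a block 0 solute carrier genes passed between conditions.

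DESeq2 gave 3 lower for glia-rich, 2 higher for myelin-rich, 4 higher and 2 lower for glia-rich against myelin-rich spots, 1 lower within the pallium and 1 lower within the subpallium. Without the count filter, 2 were lower in myelin-rich spots and 8 lower within the pallium. The highest 20% of spots gave 2 higher and 1 lower for myelin-rich and 14 higher for glia-rich against myelin-rich spots, and the highest 5% gave 4 higher and 3 lower there. For myelin-rich spots, library size alone gave 2 higher and 1 lower, spots with at least 500 UMIs 1 lower, leaving out control 1 area C 1 lower, pallial spots alone 0 higher and 2 lower, and subpallial spots alone 2 lower. Without microglial spots 3 were lower in glia-rich spots. The causes were not tested. Counts under alternatives, here and elsewhere in the text, come without the share over all genes. They therefore do not show a change particular to the solute carriers. The conditions and their interaction with region had 0 solute carrier genes under every alternative.

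Depth limits the sparse genes, 14 of which were tested in no class comparison, and each comparison rests on 4 males, so that differences under 2-fold in the smaller classes may not have been detectable.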
